A study of Mus musculus with 14 samples.

Results

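The 10 genes described here encode the receptors with which platelets attach to an injured vessel wall and to each other, and the ligands that those receptors bind: Gp1ba, Gp1bb, Gp9, Gp5, Vwf, Gp6, Thbs1, Itga2b, Itgb3 and Selp. They were chosen by symbol, with earlier results of these data known, and all 10 were matched among the 21887 protein-coding genes of the annotation. Histone marks around them were read from ChIP-seq (chromatin immunoprecipitation followed by sequencing) of lineage-depleted (Lin-) bone marrow progenitors, the cells that remain after mature blood cells are removed with a lineage depletion kit. All cells came from C57BL/6 mice that were UTX WT or UTX KO. UTX, the product of Kdm6a, is a histone H3K27 demethylase and a subunit of enhancer-modifying complexes. The design text gives the genotypes as Utx+/+ and Utx-/-. The Cre driver or other means of deletion, the age and sex of the mice and the number of animals behind a library are not given in the sources used here.

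Acetylation of histone H3 at lysine 27 (H3K27ac, a mark of active promoters and enhancers) and trimethylation of the same residue (H3K27me3, the mark laid down by Polycomb) were each measured in 2 WT and 2 KO libraries. UTX itself was precipitated in 2 WT libraries, and 1 IgG library from WT cells, whose title names a BCOR precipitation, gave the background. 11 of the 14 samples had files; the other 3 (both inputs and 1 IgG) were not used here. The H3K27ac libraries held between 9330823 and 15256696 reads in islands, the stretches called enriched. The H3K27me3 libraries held between 2347442 and 2743508, the UTX libraries 816567 and 1834418, and the IgG library 154029. Kdm6a kept H3K27ac islands in all 4 libraries (197 and 102 reads per 1000000 island reads, rpm, in WT and 181 and 185 rpm in KO), and islands of this kind cannot check a deletion of exons. The labels do not say that libraries came from separate animals, so p-values measure only the spread between libraries, which may be technical.

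Platelets are shed by megakaryocytes, and the adhesion genes are classic late megakaryocyte genes, several of which already carry active chromatin in stem cells and megakaryocyte-biased progenitors. Under fast flow, a platelet is first tethered by the GPIb-IX-V complex, built from GPIb alpha (Gp1ba), GPIb beta (Gp1bb), GPIX (Gp9) and GPV (Gp5), to von Willebrand factor (Vwf) that is bound to collagen. GPVI (Gp6) then reads collagen directly and signals inward, after which the integrin alpha-IIb beta-3 (Itga2b and Itgb3) opens to bind fibrinogen and join platelets, while P-selectin (Selp) moves from granules to the surface and thrombospondin (Thbs1) is released as an adhesive protein. GATA1, FLI1 and other ETS factors, RUNX1 and NFE2 are the transcription factors best known for switching these genes on.

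The promoters of 5 of the genes are shown because their H3K27ac islands shrank, thinned or were no longer called in KO, and because GATA and ETS factors bind such genes in megakaryocytes. The sequences are from RefSeq (GRCm38.p6, the mm10 assembly), 250 bases before the annotated start, each on the gene's own strand from 5′ to 3′. The stretches lie at chr11:70638872-70639121 (Gp1ba, plus strand), chr6:87777820-87778069 (Gp9, plus), chr16:30310782-30311031 (Gp5, minus), chr7:4397745-4397994 (Gp6, minus) and chr11:102469884-102470133 (Itga2b, minus). Capitals mark matches on either strand to GATA words (AGATAA, the variant AGATAG, the variant TGATAA and the variant TGATAG) and to ETS words (AGGAAG and the variant CGGAAG). In the runs shown, a GATA word on the other strand therefore appears in reverse, as TTATCT for example, and an ETS word as CTTCCT.
Gp1ba: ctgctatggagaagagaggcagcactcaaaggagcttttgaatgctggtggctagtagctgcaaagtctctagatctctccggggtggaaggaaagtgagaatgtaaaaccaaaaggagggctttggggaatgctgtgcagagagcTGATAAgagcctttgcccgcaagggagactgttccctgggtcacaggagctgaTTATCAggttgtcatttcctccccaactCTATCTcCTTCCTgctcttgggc
Gp9: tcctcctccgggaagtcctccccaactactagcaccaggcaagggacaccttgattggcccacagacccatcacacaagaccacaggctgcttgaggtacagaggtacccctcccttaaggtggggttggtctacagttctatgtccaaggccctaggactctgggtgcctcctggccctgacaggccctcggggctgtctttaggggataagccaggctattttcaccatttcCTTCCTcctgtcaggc
Gp5: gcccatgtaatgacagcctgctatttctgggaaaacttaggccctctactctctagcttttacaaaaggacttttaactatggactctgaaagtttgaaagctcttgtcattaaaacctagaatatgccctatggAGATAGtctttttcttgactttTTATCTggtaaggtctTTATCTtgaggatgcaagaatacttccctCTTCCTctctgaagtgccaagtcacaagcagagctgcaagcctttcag
Gp6: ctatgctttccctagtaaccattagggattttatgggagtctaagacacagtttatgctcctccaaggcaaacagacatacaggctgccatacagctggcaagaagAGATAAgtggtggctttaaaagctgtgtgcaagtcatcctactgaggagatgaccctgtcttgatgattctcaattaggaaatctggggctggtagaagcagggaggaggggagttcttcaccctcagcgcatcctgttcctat
Itga2b: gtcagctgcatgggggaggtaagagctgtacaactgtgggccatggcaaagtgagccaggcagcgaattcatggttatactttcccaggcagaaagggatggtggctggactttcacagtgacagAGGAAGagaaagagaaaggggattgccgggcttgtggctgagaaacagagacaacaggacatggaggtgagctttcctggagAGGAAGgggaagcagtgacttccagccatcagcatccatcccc

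7 of the 10 genes had an entry in the promoter table. Vwf, Thbs1 and Itgb3 had none and are described by their islands alone. Over the full entry of 300 bases (250 before the start and 50 after it), a GATA word was found in 4 of 7, with 3 each in Gp1ba and Gp5 and 1 each in Gp1bb and Gp6, while 26.7% of 17492 promoters in the table hold one. In Gp5 the words begin at -115, -93 and -77, and in Gp1ba at -104, -51 and -23, counted from the start base as 0. An ETS word was found in 6 of 7 (48.7% of all promoters) and the RUNX word TGTGGT in 1, Gp9 (15.1%). The GATA and ETS words do not overlap each other; in Gp1ba the GATA word at -23 and the ETS word at -16 are separated by 1 base. A word match is a description of the letters, not evidence of binding.

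H3K27ac fell around Gp9, Gp5, Vwf and Thbs1 in KO progenitors. It rose around Selp, in a stretch over the 3′ end of Selp that also meets the neighbour F5. Each gene was first read as a window, its span plus 10 kb on both sides, with the reads of every island that met it, and the window was tested by edgeR where all 4 libraries had an island. Of the 10 windows, 8 could be tested (61.8% of all genes could). Of these 8, 4 were lower in KO (12.3% of all 13516 tested windows were) and 1 was higher (10.2%), while Gp1ba, Itga2b and Itgb3 did not pass. The median log2 fold change of the 8 was -0.93, beside 0.00 over all tested windows. The 2 untested windows were Gp6, with an island in both WT and neither KO library (2.06% of windows with any island), and Gp1bb, with an island in neither WT and both KO libraries (1.47%). In these whole-population data, fewer cells of one type and less mark per cell cannot be told apart.

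Windows can take in neighbouring genes, so the islands of the 4 libraries were also merged where they overlapped into regions. Regions show the separate stretches of a window, but a region can still join several islands or meet a neighbouring gene. The 10 windows met 26 H3K27ac regions, of which 14 had an island in all 4 libraries. 6 of these fell (14% of all 18820 tested regions did) and 1 rose (12%). Scaling to total island reads in place of TMM raised the median of all regions to 0.12 and called 3268 higher and 2069 lower, against 2258 and 2631, and left 6 member regions lower and 1 higher. For Vwf, Thbs1 and Itgb3, whose strand was not in the sources used, the lower-coordinate end was taken as the start. 9 regions lay at the start of a member (Gp1bb had none), 7 of them tested, and 5 of the 7 fell: those of Gp9, Gp5, Vwf, Thbs1 and Itga2b. The start regions of Itgb3 and Selp did not pass.

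**Figure D1:**
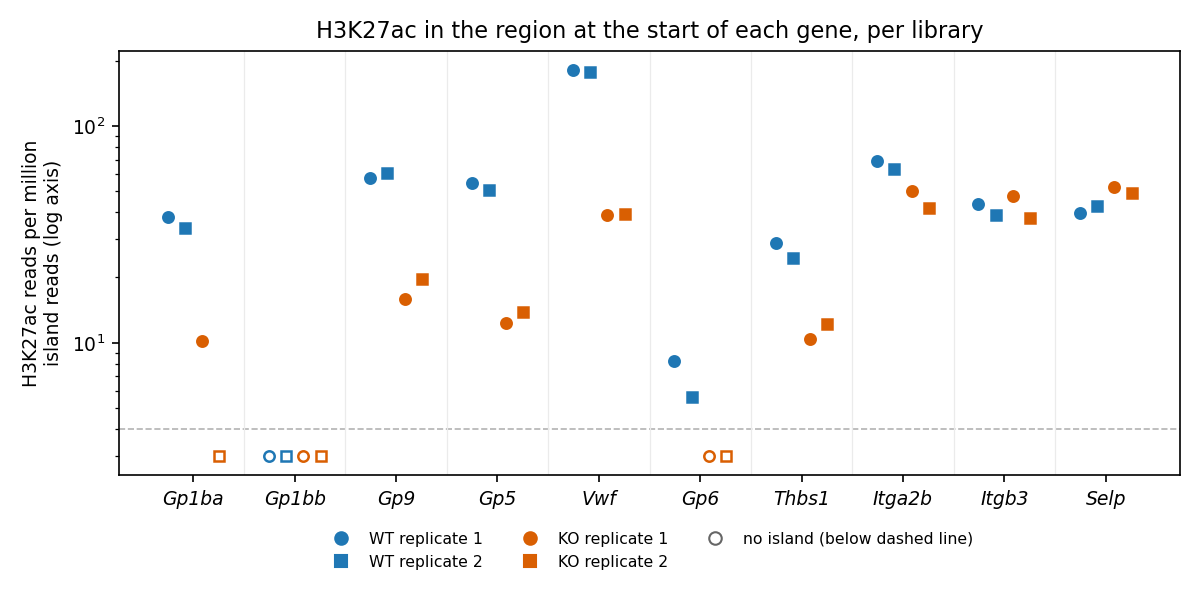
H3K27ac in the region at the start of each gene, in rpm on a log axis, with 1 point per library (blue WT, orange KO) and open symbols below the dashed line where a library had no island. For Vwf, Thbs1 and Itgb3 the lower-coordinate end was taken as the start. The KO points lie below both WT points for Gp1ba, Gp9, Gp5, Vwf, Gp6, Thbs1 and Itga2b, mix with them for Itgb3 and lie above them for Selp; no library had an island at Gp1bb.

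The GPIb-IX-V complex was read first. At Gp9, whose product holds the complex together at the surface, the region over the gene (chr6:87774801-87781400) held 57.3 and 60.6 rpm in WT and 15.8 and 19.6 rpm in KO. All of the WT values lay above all of the KO values. The region fell by 1.86 on the log2 scale (SE 0.158, edgeR adjusted p = 0.000569). Its width was largely kept, at 6.60 and 5.60 kb in WT and 5 and 5.60 kb in KO, so that the reads per covered kb dropped from 9.76 ± 1.51 to 3.34 ± 0.234 (SD, n = 2 each). Tested with the covered length as an offset, Gp9 was still lower (log2 fold change -1.67, edgeR adjusted p = 0.0161), and it was the only member with a lower start region on that scale, on which 1.38% of all regions were lower. The second region in the Gp9 window, over the neighbour Rab43 (a small GTPase gene), went from 243 and 253 rpm to 201 and 208 rpm, a smaller fall (-0.40, SE 0.0789, edgeR adjusted p = 0.0115; 0.0608 without WT replicate 2 and 0.0512 without KO replicate 1). Its islands also supply most of the reads of the Gp9 window (log2 fold change -1.98, SE 0.0956, edgeR adjusted p = 0.00632): the Rab43 island that met the window ran unbroken for 27.8 and 30.0 kb in WT, and for 13.6 and 7.80 kb in KO, the rest of the KO islands lying outside the window. The window's call ended when only islands lying at least 50% inside were used (-0.38, adjusted p = 0.748) and with 5 kb of flank (-3.45, adjusted p = 0.0728). The region is not touched by either choice.

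At Gp5, the GPV subunit that thrombin cleaves, 1 island ran from the gene across its start and into its upstream flank in both WT libraries. That island also met the neighbour Atp13a3 (a P-type ATPase gene), so its reads are not those of Gp5 alone. The region (chr16:30307601-30317600) held 54.7 and 50.5 rpm over 10 kb in each WT library, and 12.4 and 13.8 rpm over 4.60 and 4.40 kb in KO. Both the reads and the lengths of the groups lay apart. Reads fell by 2.12 on the log2 scale (SE 0.153, edgeR adjusted p = 0.000390). The islands that KO kept lay over the gene and its start, from 0.116 to 4.72 kb (replicate 1) and to 4.52 kb (replicate 2) from the gene's lower-coordinate end, whereas the WT islands reached 9.92 kb. Reads per covered kb were 5.26 ± 0.291 in WT and 2.92 ± 0.320 in KO (SD, n = 2 each), a difference that did not pass on the per-length scale (-0.96, edgeR adjusted p = 0.0646). The window held this region alone (-2.05, edgeR adjusted p = 0.00714).

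Gp1ba, the subunit that binds VWF, lies beside a block of strongly acetylated neighbours. Its own region (chr11:70636401-70643000), over the start and most of the gene, held 38.0 and 34.0 rpm in WT, 10.2 rpm in KO replicate 1 and no island in KO replicate 2. The groups did not overlap, but with 1 library lacking an island the region was left out of the test. When regions with islands in at least 2 libraries were admitted, Gp1ba did not pass (log2 fold change -2.88, edgeR adjusted p = 0.374). The library without an island enters that fit as 0, so the fitted fold depends on the prior count. Of all regions tested in that way, 18.4% were lower and 11.6% higher in KO. The block next to it, over Slc25a11, Rnf167, Pfn1 and Eno3 (mitochondrial transport, ubiquitin ligation, actin binding and glycolysis), held 236 and 231 rpm in WT and 229 and 233 rpm in KO, and it did not pass (-0.13, SE 0.0710, edgeR adjusted p = 0.224). Since the block supplies most of the reads, the Gp1ba window as a whole moved little (-0.29, SE 0.0793, edgeR adjusted p = 0.0689). A small upstream region with 7.39 and 5.96 rpm in WT had no island in KO. With regions in at least 2 libraries admitted, its edgeR adjusted p was 0.0241. KO enters that fit as 0, so this p-value restates the absence of islands.

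Gp1bb, the GPIb beta subunit, had no H3K27ac island over the gene in any library. The only island in its window lay over the neighbour Septin5 (a septin gene of platelets and neurons), in KO alone, with 17.3 and 19.2 rpm (5.18% of all regions had islands in both KO and neither WT library). Admitted with regions in at least 2 libraries, that region had an edgeR adjusted p of 0.0230. WT enters that fit as 0, so this p-value restates the absence of WT islands. An absent island means that the caller found no enrichment, not that no reads lay there: the smallest H3K27ac island listed held 18 reads in WT replicate 1, 24 in WT replicate 2, 32 in KO replicate 1 and 24 in KO replicate 2, between 1.57 and 2.17 rpm.

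The ligands followed. Among the regions over a member gene, the first region of Vwf held the most reads in WT. Its first region (chr6:125547401-125579800) began 5.55 kb outside the lower-coordinate end of the gene and reached 26.9 kb into it. It held 181 and 177 rpm over 30.6 and 32.4 kb in WT, and 39.0 and 39.3 rpm over 5 and 6.20 kb in KO. The replicates of each genotype were close and the genotypes far apart: KO reads were 0.202 of WT (log2 fold change -2.31, SE 0.0866, edgeR adjusted p = 0.000171). The covered length in KO was 0.178 of that in WT. What KO kept was an internal core, an island of 39.0 rpm from 17.7 to 22.7 kb in replicate 1 and of 32.6 rpm from 19.3 to 22.3 kb in replicate 2, at 7.80 and 10.9 rpm per kb. In WT replicate 1, where the stretch was called as separate islands, the island over the same core (19.3 to 26.7 kb) held 71.3 rpm over 7.40 kb. Its density, 9.63 rpm per kb, lay between those of the KO islands, which were shorter and held fewer reads. The rest of the stretch had 4.73 rpm per kb. At the gene's lower-coordinate end itself, KO replicate 2 had a small island of 6.65 rpm and KO replicate 1 none. Per covered length the region was not lower (0.20, edgeR adjusted p = 0.623). Further into Vwf, a second region of 18.8 and 9.70 rpm in WT had no island in KO. With regions in at least 2 libraries admitted, its edgeR adjusted p was 0.0237, with KO entered as 0. The remaining regions (-0.48, adjusted p = 0.382, and -0.57, adjusted p = 0.162) did not pass.

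Thbs1, thrombospondin 1, had a single weak region at its lower-coordinate end (chr2:118106601-118116400). It held 28.7 and 24.5 rpm over 9.60 and 8.40 kb in WT, and 10.4 and 12.2 rpm over 2.80 and 3.60 kb in KO. Again the groups did not overlap in either measure. Reads fell by 1.35 on the log2 scale (SE 0.204, edgeR adjusted p = 0.00402), and reads per covered kb, 2.96 ± 0.0520 in WT and 3.55 ± 0.215 in KO (SD, n = 2 each), did not pass (0.15, adjusted p = 0.783). The window, which holds the same islands, passed with all 4 libraries (-1.28, edgeR adjusted p = 0.0183) and lost its call when any 1 library was left out (adjusted p between 0.0609 and 0.0804); the region kept its call in each case.

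Gp6, the collagen receptor, had 1 small island at its transcription start (chr7:4396601-4399200) in WT, with 8.25 and 5.64 rpm over 2.60 and 2.20 kb. Neither KO library had an island anywhere in the window. With regions in at least 2 libraries admitted, its edgeR adjusted p was 0.0245. The region was admitted through its WT islands alone and KO entered as 0, so this p-value restates the absence of islands. Among all H3K27ac regions 9.28% had an island in both WT and neither KO library. An amount in KO below the smallest islands listed there (2.17 and 2.16 rpm) would not be seen.

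The integrin subunits differed in what was seen at their starts. Itga2b, the alpha-IIb chain and a textbook marker of the megakaryocyte lineage, shares its start region (chr11:102466201-102484000) with its neighbour Gpatch8. The region held 69.0 and 63.1 rpm over 14.4 and 14.8 kb in WT, and 50.0 and 41.7 rpm over 4.80 and 4.20 kb in KO. Reads fell by 0.64 (SE 0.130, edgeR adjusted p = 0.0127), a call that was lost with every region admitted (adjusted p = 0.0541) and on leaving out WT replicate 1 (0.0768), WT replicate 2 (0.0695) or the second KO library (0.0617). What remained was denser: reads per covered kb were 4.53 ± 0.373 in WT and 10.2 ± 0.340 in KO (SD, n = 2 each), and the per-length test was higher in KO (1.06, edgeR adjusted p = 0.0397; 0.42% of all regions were). In WT replicate 2, where the stretch was divided, the island at the start alone held 43.4 rpm over 6.60 kb at 6.57 rpm per kb, so the amount at the start was near that of KO and the flanking islands toward Gpatch8 were the ones without a counterpart. Itga2b's window did not pass (-0.57, edgeR adjusted p = 0.0834; DESeq2 adjusted p = 0.0437).

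Itgb3, the beta-3 chain, held 43.7 and 38.7 rpm at its lower-coordinate end in WT and 47.3 and 37.7 rpm in KO. The genotypes overlapped, and the region did not pass (-0.06, SE 0.156, edgeR adjusted p = 0.803), the sign turning with scaling to total reads (0.05) and without KO replicate 2 (0.10). An outlying WT region 8.20 to 16.0 kb outside that end, with 10.2 and 12.3 rpm, had no island in KO. With regions in at least 2 libraries admitted, its edgeR adjusted p was 0.0231, with KO entered as 0. An element inside the gene, 32.6 to 41.0 kb from that end, held 18.8 and 20.6 rpm in WT and 31.2 and 26.6 rpm in KO, without overlap and without passing (0.44, SE 0.189, adjusted p = 0.138). The 2 KO libraries differed much over the whole window, 121 against 64.3 rpm, replicate 1 having 6 islands and replicate 2 only 2.

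The Selp window moved the other way, and not at the start of the gene. The start region held 39.5 and 42.9 rpm in WT and 52.2 and 49.2 rpm in KO, which lay apart but did not pass (0.18, SE 0.130, edgeR adjusted p = 0.349), and the element inside the gene did not pass either (0.09, adjusted p = 0.660). The rise came from the third region (chr1:164142001-164156000), over the 3′ end of Selp and the neighbouring end of F5, the gene of coagulation factor V. It held 27.7 and 30.9 rpm in WT and 80.3 and 104 rpm in KO (1.52, SE 0.155, edgeR adjusted p = 0.000937). Both the covered length, 6.40 and 10.2 kb against 11.2 and 12.8 kb, and the density were higher in KO, and the per-length value did not pass (0.95, adjusted p = 0.0753). The Selp window followed (0.75, SE 0.104, edgeR adjusted p = 0.0170) and lost its call without any 1 library (adjusted p between 0.0553 and 0.0705).

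Covered length and density did not go together across the set. 4 of the 7 tested start regions (Vwf, Gp5, Thbs1 and Itga2b) covered at most 0.5 times the WT length in KO, without overlap of libraries. This held for 3.59% of all tested regions and for 22.7% of those that fell. Over all tested regions the median ratio of KO to WT length was 1.05. In WT, the densest start region was that of Gp9 (9.76 rpm per kb), followed by Gp1ba (5.81 ± 0.467), Vwf (5.69 ± 0.322), Gp5 (5.26 ± 0.291), Itgb3 (4.64 ± 0.980) and Itga2b (4.53 ± 0.373), around the median of all tested regions (5.44), and by Selp (3.22 ± 0.348), Thbs1 (2.96 ± 0.0520) and Gp6 (2.87 ± 0.433). Neighbours in this order from Gp1ba down to Itga2b, and from Selp down to Gp6, had WT replicate values that overlapped, Vwf and Gp5 only just. In KO the order was another: Itga2b (10.2 ± 0.340) and Vwf (7.07 ± 1.04) stood above Itgb3 (5.18 ± 0.506), and Thbs1, Gp9, Selp and Gp5 lay between 2.92 and 3.55.

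**Figure D2:**
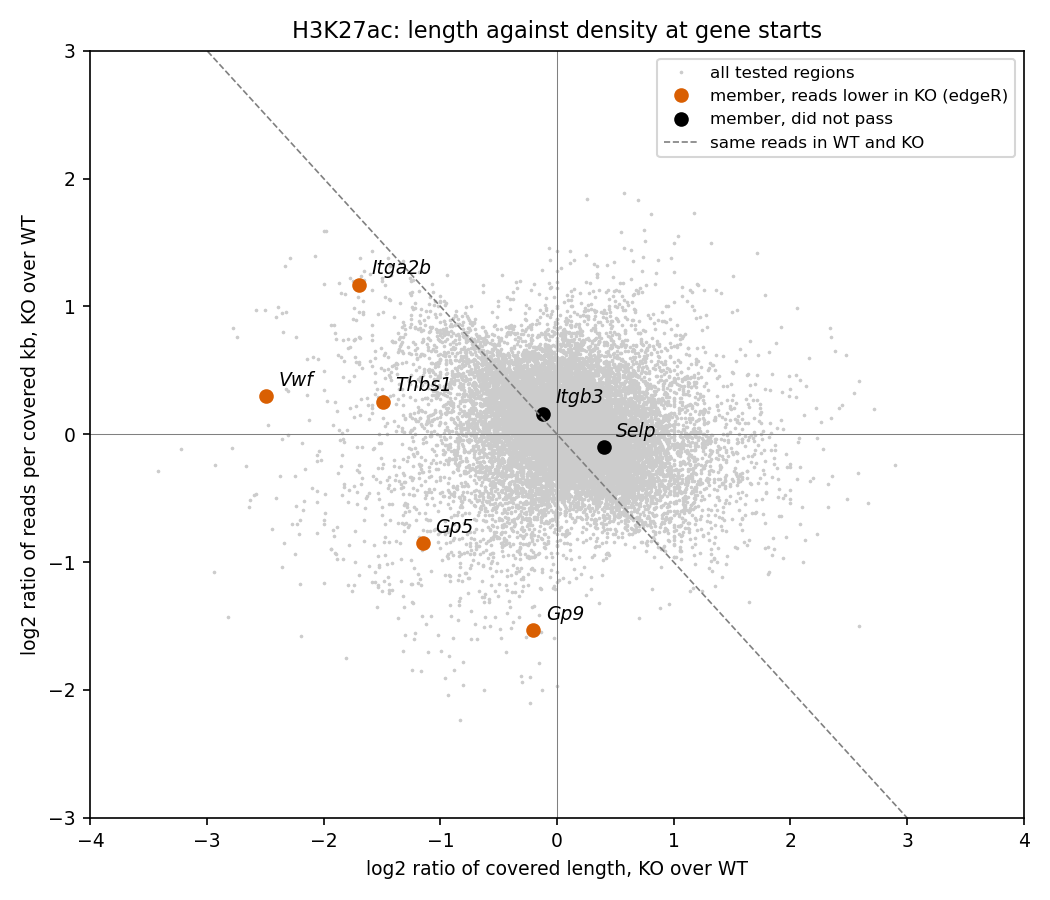
For each tested H3K27ac region, the log2 ratio of covered length (KO over WT) against the log2 ratio of reads per covered kb, with all 18820 regions in grey, and the start regions of members that fell (orange) or did not pass (black). Vwf, Thbs1 and Itga2b lie to the left with densities at or above WT, Gp9 lies below with its length nearly kept, and Gp5 is lower in both. For Vwf, Thbs1 and Itgb3 the lower-coordinate end was taken as the start.

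No H3K27me3 change passed at these genes. edgeR called 0 of 6221 tested windows in either direction (497 had an unadjusted p under 0.05, and DESeq2 called 48 higher and 40 lower, none of them a member) and 1 of 6771 regions as lower (0.0148%). 4 of the 10 members had islands in all 4 libraries, beside 28.4% of all genes. Gp9 held 18.2 and 21.6 rpm in WT and 49.8 and 50.7 rpm in KO, beside the gene's lower-coordinate end. The genotypes lay apart, and the difference did not pass (1.28, SE 0.353, edgeR adjusted p = 0.534). Gp1bb held the most, 406 and 414 rpm in WT and 216 and 307 rpm in KO (-0.71, SE 0.229, adjusted p = 0.576). It shares a broad domain with Septin5, next to that of Tbx1, a developmental T-box gene of the kind that Polycomb marks. Gp5 held 34.6 and 79.0 rpm in WT and 115 and 63.0 rpm in KO, with overlap (0.62, adjusted p = 0.746). Itga2b held 147 and 129 rpm in WT and 207 and 149 rpm in KO (0.30, adjusted p = 0.767), over the neighbour Fam171a2 and the far end of the gene from its start.

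Among the other 6 members, H3K27me3 was sparse. Thbs1 (19.3 and 17.1 rpm) and Itgb3 (16.4 and 19.1 rpm) each had 1 short island at the lower-coordinate end in both WT libraries and none in KO, a pattern of 5.5% of windows with any H3K27me3 island. These 2 genes differ in H3K27ac, which fell at Thbs1 and overlapped between genotypes at Itgb3. Gp1ba and Selp had no H3K27me3 island in any library, as 52.5% of all genes. Vwf (20.8 rpm in WT replicate 1 and 17.5 in KO replicate 1, at different places) and Gp6 (47.7 and 8.96 rpm in WT, 23.0 rpm in KO replicate 1) had islands that did not recur between genotypes. The smallest H3K27me3 islands listed lay between 5.29 and 8.38 rpm, so islands of this size are near what the libraries can show.

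**Figure D3:**
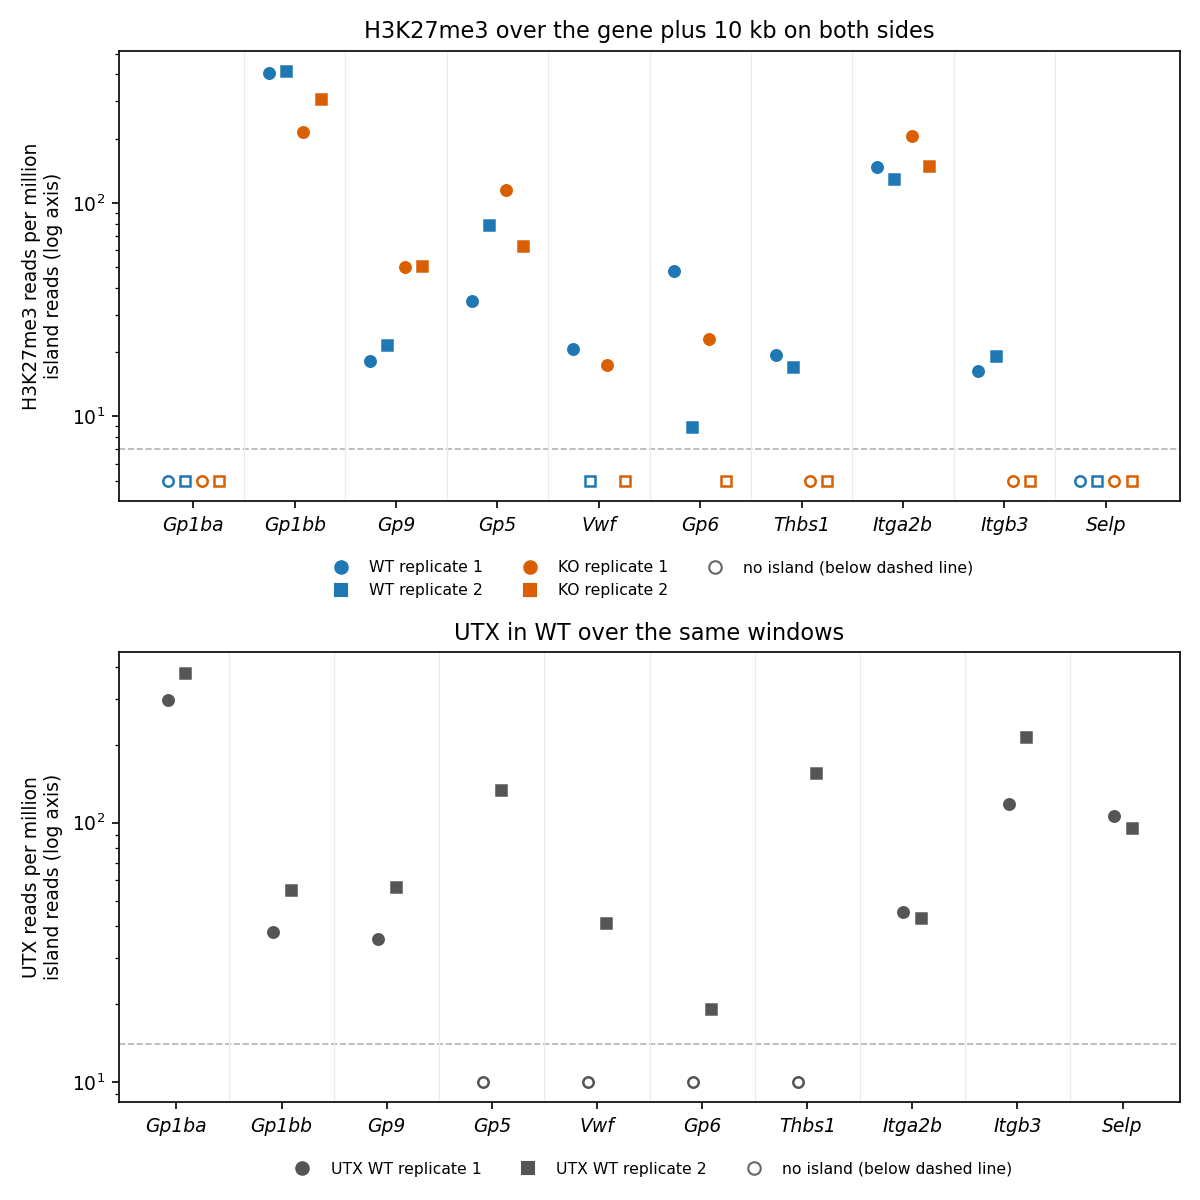
Upper panel: H3K27me3 over each gene plus 10 kb, in rpm on a log axis, 1 point per library (blue WT, orange KO), open symbols marking no island. Lower panel: UTX in the 2 WT libraries over the same windows; Gp5, Vwf, Gp6 and Thbs1 have an island in replicate 2 alone.

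UTX in WT cells lay in the windows of 6 of the 10 genes in both libraries without an IgG island: Gp1ba, Gp1bb, Gp9, Itga2b, Itgb3 and Selp. Over all genes 43.8% of windows were occupied in this way, and 69.2% of those tested for H3K27ac. No member window met an IgG island, and 5.46% of all windows did. Islands of the 2 libraries overlapped each other in 5 of the 10 windows (42.6% of all genes), mostly over neighbours. At Itgb3 the islands of both libraries overlapped at the lower-coordinate end (67.4 rpm in replicate 1 and 155 rpm in replicate 2), and at Selp they overlapped in the element inside the gene, 19.5 to 21.1 kb from the start (107 and 62.1 rpm). Neither of these elements passed the H3K27ac test. At Gp1ba the shared islands lay in the neighbouring block (113 and 117 rpm at Slc25a11 and Rnf167, 153 and 262 rpm at Pfn1 and Eno3), at Gp1bb over Septin5 (38.0 and 32.7 rpm) and at Itga2b over Fam171a2 (45.3 and 19.6 rpm). These genes also had islands of a single library: at the start of Gp1ba (30.6 rpm, replicate 1), over Gp1bb (22.4 rpm, replicate 2) and in the Itga2b start region (23.4 rpm, replicate 2). At Gp9 the islands of the libraries lay apart, 29 reads at the gene's lower-coordinate end in replicate 1 and 104 reads toward Rab43 in replicate 2.

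Replicate 1 had an island in 6 member windows (52.9% of all genes) and replicate 2 in all 10 (56.1%). Vwf, Gp5, Gp6 and Thbs1 were the 4 with UTX islands in the deeper replicate 2 alone. In Vwf this island (40.9 rpm, 19.5 to 21.1 kb from the lower-coordinate end) lay inside the core where both KO libraries kept H3K27ac. In Gp5 the 3 islands held 134 rpm together, the largest over the gene (84.5 rpm), and in Thbs1 the 3 held 155 rpm, the largest at the lower-coordinate end (92.1 rpm). Replicate 1 had fewer than 50% of the reads of replicate 2, and whether its lack of islands here comes from its depth was not tested. With the gene span alone 2 members were occupied, with islands of at least 50 reads 3, and with replicate 2 as the only UTX library all 10. Over all genes the same choices gave 35.8%, 31.2% and 53% of windows.

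Among tested windows of other platelet genes, H3K27ac calls went in both directions. The test leaves out windows without an island in all 4 libraries, and so any gene whose islands were lost in KO. The lists below were chosen with earlier results of these data known, and the counts are set against the 12.3% of windows lower and 10.2% higher over all genes. Of 12 agonist receptor genes 10 had tested windows, of which 0 rose and 2 fell: Ptger3, a prostaglandin E2 receptor (152 and 139 rpm to 46.5 and 37.2, log2 fold change -1.84, edgeR adjusted p = 0.00807), and P2ry1, an ADP receptor (51.5 and 52.3 rpm to 26.6 and 24.5, -1.07, adjusted p = 0.0132). Of 24 adhesion partners and signalling genes 21 were tested, of which 6 rose and 0 fell, led by Syk, the kinase downstream of GPVI (336 and 315 rpm to 726 and 565, 0.94, adjusted p = 0.0209), and Rasgrp2, which activates Rap1 ahead of the integrin (94.7 and 83.1 rpm to 153 and 159, 0.76, adjusted p = 0.0140). Both are also expressed in other blood cells. Leaving out 1 library ended the calls of Ptger3 (WT replicate 2, adjusted p = 0.0506), of P2ry1 and Rasgrp2 (WT replicate 2 or either KO replicate, 0.0520 to 0.0658) and of Syk (either WT replicate, 0.0769 and 0.100).

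Of 18 granule and cytoskeleton genes 14 were tested, of which 2 rose and 2 fell. F5 rose (46.2 and 48.3 rpm to 130 and 155, 1.54, edgeR adjusted p = 0.00828). Most of that rise lay in the region it shares with Selp (27.7 and 30.9 rpm to 80.3 and 104). Cd63, a granule tetraspanin, also rose (82.2 and 66.0 rpm to 138 and 123, 0.77, adjusted p = 0.0272). The chemokine genes Pf4 and Ppbp are neighbours and were read from the same islands (52.8 and 51.6 rpm to 25.3 and 16.1, -1.38, adjusted p = 0.0294). Of 16 matched transcription factor genes, all tested, 4 rose and 4 fell. Ets1 (141 and 122 rpm to 423 and 414, 1.63, edgeR adjusted p = 0.00632) and Fli1 (403 and 423 rpm to 638 and 637, 0.58, adjusted p = 0.0168), both ETS factors, rose. Tal1 (347 and 344 rpm to 127 and 107, -1.61, adjusted p = 0.00735) and Gfi1b (291 and 294 rpm to 80.7 and 127, -1.55, adjusted p = 0.0190), which work with GATA1, fell. Gata1 itself also fell (80.3 and 82.4 rpm to 40.6 and 53.7, -0.84, adjusted p = 0.0333). Leaving out 1 library ended the calls of Cd63 (WT replicate 2 or either KO replicate, adjusted p between 0.0723 and 0.106), of Pf4 and Ppbp (either WT replicate or KO replicate 2, 0.0553 to 0.116), of Gfi1b (either WT replicate, 0.0651 and 0.0831) of Fli1 (any library, 0.0502 to 0.0767) and of Gata1 (any library, 0.0521 to 0.118), and not those of F5, Tal1 and Ets1. With 5 kb of flank the calls of Pf4 (0.0687), Ppbp (0.0524) and Cd63 (0.0548) also ended. Gata1 and the endothelial genes given below were named after their values were seen. The list medians were -0.71, 0.24, 0.08 and -0.32 in this order, beside 0.00 over all windows.

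The 9 genes of these lists that were not tested were named after their values were seen. 4 had islands in both WT libraries and in neither KO library, as did 2.06% of windows with any island: Cd36, a receptor of thrombospondin (43.1 and 51.0 rpm in WT), Mmrn1, the granule protein multimerin 1 (39.3 and 49.0 rpm), Rab27b, a GTPase of granule secretion (73.2 and 93.7 rpm), and Myl9, a myosin light chain (67.4 and 47.0 rpm). F2r, a thrombin receptor gene (20.4 and 24.3 rpm), Esam, an adhesion molecule (20.04 and 11.1 rpm), and Treml1, a granule receptor (17.5 and 15.3 rpm), had 8.94, 4.47 and 5.83 rpm in KO replicate 1, each below both WT values, and no island in KO replicate 2. Jam3, a junctional adhesion molecule, had an island in KO replicate 1 alone (11 rpm), and Adra2a, an adrenergic receptor, in no library. When an island in at least 2 libraries was enough, the edgeR adjusted p was 0.0131 for each of Cd36, Mmrn1, Rab27b and Myl9. Their windows were admitted through WT alone with KO entered as 0, so these p-values restate the absence of islands. Those of F2r, Esam and Treml1 did not pass (0.378 to 0.450). With such windows counted, the calls were 0 higher and 2 lower of 11 agonist receptors, 6 and 1 of 23 adhesion partners and signalling genes, and 2 and 5 of 18 granule and cytoskeleton genes, beside 10% higher and 12.4% lower over all windows tested in that way.

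H3K27ac at markers of other cells in the preparation differed from list to list. Summed H3K27ac over 8 erythroid marker windows, a lineage close to megakaryocytes, was 776 and 897 rpm in WT and 188 and 252 rpm in KO, and all 4 windows that could be tested fell. Over 8 progenitor markers the sums were 1307 and 1266 rpm in WT and 985 and 859 rpm in KO (2 of 8 fell, 0 rose). Lymphoid markers went from 546 and 447 to 763 and 1015 rpm (3 of 7 tested rose), and granulocyte and monocyte markers from 976 and 1073 to 1330 and 1178 rpm (1 of 7 rose). In this last list Cebpe rose (1.13, edgeR adjusted p = 0.00728). Mpo (0.44), Itgam (0.33), Csf3r (0.07), Prtn3 (-0.12), Elane (-0.14) and Csf1r (-0.16) did not pass, and the list median was 0.07. Elane and Prtn3 both held 150 rpm in KO replicate 2, and islands met by both windows enter the sum under each. Endothelial cells also express Vwf and Selp. Their 8 markers summed to 162 and 226 rpm in WT and 208 and 179 rpm in KO, with overlap, with no island at Emcn in any library, islands in WT alone at Tek and Tie1, a rise at Cdh5 (1.35, edgeR adjusted p = 0.0240) and a fall at Kdr (-1.19, adjusted p = 0.0469). Both of these calls ended without any 1 library (adjusted p between 0.0555 and 0.177). The part of these cell types in the H3K27ac values of the adhesion genes was not tested.

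The 5 windows whose H3K27ac levels over the 4 libraries lay nearest to those of Vwf, by Euclidean distance of log2 (rpm + 1) among tested windows without a shared island, were those of Med24, Cd5, Nhej1, Ppfia1 and Armc2, at distances between 0.243 and 0.357. Med24, a Mediator subunit gene, was the nearest, with 249 and 227 rpm in WT and 56.8 and 53.7 rpm in KO. Armc2 was the farthest of the 5, with 258 and 242 rpm in WT and 75.6 and 54.0 rpm in KO. Vwf itself held 225 and 218 rpm in WT and 63.9 and 56.8 rpm in KO over its window (-1.92, SE 0.108, edgeR adjusted p = 0.00632). No other platelet adhesion gene was among them.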

How the data were processed

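Per the submitters' processing notes, enriched islands were called with SICER and the build was mm10. Version, aligner, window, gap and control are not given in the sources used here. The authors deposited 1 list per library with whole-number read counts per island, not normalized; replicates were not pooled. All widths are multiples of 200 bp. Reads outside islands were not used, so depth means island reads on chromosomes 1 to 19, X and Y; reads on other contigs were left out.

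From these counts, rpm is reads per 1000000 island reads. A gene window is the RefSeq span (GRCm38.p6) plus 10 kb, with all reads of islands meeting it by at least 1 bp. Windows, and regions merged from the islands of a mark, were tested where all 4 libraries had an island, with edgeR 4.0.16 (TMM, glmQLFit and glmQLFTest, two-sided, Benjamini-Hochberg over all features, threshold 0.05) in R 4.3.3. Log2 fold changes are KO over WT, and SE comes from the F statistic. Alternatives were DESeq2 1.42.0, total-read scaling, an offset for covered length, other filters, flanks, overlaps and island minimums, a replicate block, and leaving out each library. UTX and IgG were described by presence of islands, without a test.

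The members, gene lists, motif words and naming rule (all members and their regions, genes meeting those regions, up to 2 called genes per direction and pathway list, and the 5 windows nearest to Vwf) were chosen with earlier results of these data known. The main fits did not pair libraries by replicate number, and the labels do not say whether same-numbered libraries belong together. 1 of 17 transcription factor symbols (Mkl1) was not matched.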

Additional observations from a re-analysis of the deposited data

How the results depend on the processing

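Results depended most on whether reads or reads per covered length were compared. With covered length as an offset, the counts of higher and lower windows in H3K27ac were 0 and 0 (1636 at an unadjusted p under 0.05), those of regions 79 and 259, members called 0 higher and 0 lower by window, and 1 region of members was lower. Signs turned on that scale for the windows of Gp1ba (0.41), Thbs1 (0.22), Itga2b (0.91) and Rasgrp2 (-0.28), for the regions at Gp1ba (region 4, 0.036), Vwf (0.20), Thbs1 (0.15), Itga2b (1.06), Itgb3 (0.052) and Selp (-0.22), and in H3K27me3 for Gp1bb (window 0.40, regions 0.056 and 0.11) and Gp5 (window -0.070, region -0.35). Among these values only the region of Itga2b passed the test on that scale. Scaling to total island reads turned the sign at the start of Itgb3 (0.049). It moved the median of all H3K27ac regions to 0.12 and the share of higher among called regions from 46.2% to 61.2%, with 6 regions of members lower and 1 higher as before.

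Leaving out 1 library turned the sign of the Itgb3 window (between -0.39 and 0.53), its start region (between -0.25 and 0.10) and the H3K27me3 region of Itga2b (between -0.13 and 0.32); none of these passed with all libraries. It gave between 207 and 589 higher and between 299 and 1107 lower windows, 0 members higher, and between 1227 and 1392 higher and 1369 and 1907 lower regions. In H3K27me3 it gave between 0 and 2 windows higher and 0 and 1 lower, and between 0 and 1 regions higher and 0 and 6 lower. The calls of the Vwf, Gp9 and Gp5 windows and of the start regions of Vwf, Gp9, Gp5 and Thbs1 and of Selp region 3 were kept each time.

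Asking for an island in only 2 of the 4 libraries raised the tested regions from 18820 to 28443. Of these 5225 were lower (18.4%) and 3289 higher (11.6%), and of 23 regions of members 10 were lower and 2 higher, and no lower H3K27me3 region (0). Member regions called in WT alone or in KO alone are among these, with the missing islands entered as 0. With no filter there were 3988 lower regions, 2 of members higher, and in H3K27me3 82 higher and 195 lower. Either filter gave 2 member windows higher. DESeq2 called 48 higher and 40 lower H3K27me3 windows and 16 higher and 18 lower regions; total-read scaling gave 9 higher H3K27me3 regions, covered length 3 windows and 3 regions higher, and islands of at least 50 reads 0 lower regions. UTX occupied 2 members by the gene span alone, 3 with islands of at least 50 reads, and 10 without UTX replicate 1.

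The labels do not say whether same-numbered libraries were prepared together. Deviations of same-numbered libraries correlated between -0.0521 and 0.0468, and with 2 libraries a group this cannot settle the question. With the replicate block, 918 windows were higher and 1333 lower, regions were 2615 and 2883, and the lower H3K27me3 regions 0. With 2 libraries a group and reads in islands alone, losses below the calling threshold could not be measured.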
